A study of Bos taurus with 10 samples.

Results

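Chromatin regulators write, erase and read the chemical marks that decide which parts of a genome can be transcribed. The 38 genes described here are the writers and erasers of DNA methylation, the subunits of polycomb repressive complex 2 (PRC2), histone deacetylases, demethylases and H3K9 methyltransferases, heterochromatin proteins, and subunits of the NuRD and SWI/SNF remodellers and of the histone chaperone CAF-1. They were chosen by name and were found by the gene name that the array files give each probe. Of the 38 genes, 33 had at least 1 probe, and together these had 113 of the 43653 probes on the array. No probe named TET1, KDM6B, SMARCC1, EP300 or KAT2A was used here.

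Total RNA of day 7 embryos (Bos taurus) was hybridised to 10 Agilent bovine arrays, 1 per sample. The donor cows were superovulated. Senktide, a peptide agonist of the neurokinin 3 receptor, was infused intravenously for 2 h from 48 h after the start of that treatment, at 30 nmol/min (n = 4 samples) or 300 nmol/min (n = 4 samples). The vehicle group (n = 2 samples) is labelled DMSO. All cows were inseminated with frozen and thawed semen at 108 and 120 h, and the embryos were flushed from the uterus 7 days after the first insemination, so that senktide came before fertilisation. Whether the samples stem from different cows, and how many embryos were pooled in 1 sample, the labels leave unsaid, and p-values here reflect just the scatter of these samples. The series' design text states the purpose as finding how senktide given to the cow bears on the quality and stage of the embryos.

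In the mammalian preimplantation embryo most DNA methylation inherited from the gametes is lost and later written again. DNMT1, guided to newly copied DNA by UHRF1, keeps the pattern through cell division, DNMT3A and DNMT3B write it afresh, and the TET enzymes oxidise it on the way to its removal. PRC2 places the repressive H3K27 methyl mark, and HDAC1 and HDAC2 remove acetyl groups from histones as parts of NuRD and other corepressor complexes. In the blastocyst these enzymes act while trophectoderm and inner cell mass take separate fates.

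A level on this kind of array is read through a 60-base probe, and results below turn on which probe of a gene is read, so the probes that matter most are shown. Each sequence is given 5' to 3' as the array files list it, all in lower case since no part of it is singled out. Positions are those the files give, counted along the annotated transcript and on build Btau_3.1. The SMARCA4, HDAC2 and DNMT1 probes are the brightest of their genes and had a lower mean than vehicle at both doses. The EZH2 probe is the second brightest of its gene, the HDAC1 probe gave no signal above background although another HDAC1 probe was detected on all 10 arrays, and the DNMT3B probe is the only probe of its gene.
SMARCA4, position 1755: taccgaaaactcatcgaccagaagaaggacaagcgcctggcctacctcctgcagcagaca
HDAC2, position 1512: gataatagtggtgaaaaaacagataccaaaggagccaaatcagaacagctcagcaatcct
DNMT1, position 2085: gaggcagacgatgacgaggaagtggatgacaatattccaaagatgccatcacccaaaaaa
EZH2, position 2126: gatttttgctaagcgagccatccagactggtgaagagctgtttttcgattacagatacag
HDAC1, position 855: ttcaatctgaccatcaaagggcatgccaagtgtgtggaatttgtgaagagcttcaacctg
DNMT3B, position 2097: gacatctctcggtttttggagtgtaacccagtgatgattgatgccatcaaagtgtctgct
The SMARCA4 probe lies on the plus strand at chr7:13902570-13902629 and the DNMT1 probe on the minus strand at chr7:13164559-13164617. The other 4 span more than their own 60 bases of genome, so that their targets are split across it: HDAC2 at chr9:38295253-38296312 (plus strand, 1060 bases), EZH2 at chr4:116300443-116301389 (minus strand, 947 bases), HDAC1 at chr2:125447605-125447745 (minus strand, 141 bases) and DNMT3B at chr13:63040511-63041584 (plus strand, 1074 bases). Each of the 6 sequences can be read in at least 1 frame without a stop codon. GC content was 40% for HDAC2, 43.3% for EZH2, 45% for DNMT1, HDAC1 and DNMT3B, and 55% for SMARCA4.

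Values are log2 of the processed signal minus the 75th percentile of the array's well detected probes, called the scaled signal, and levels of different probes are not compared. A probe is called well above background where the array software's flag says so. The arrays lay on 3 slides. Replicate 1 of every group was on slide 1 and replicate 2 of every group on slide 2. Slide 3 carried the remaining senktide arrays, replicates 3 and 4 at each dose, and no vehicle sample. A mean of 8.31% ± 1.60 (SD, n = 2) of spots was well above background in vehicle, 14.5% ± 5.22 (SD, n = 4) at 30 nmol/min and 15.6% ± 4.49 (SD, n = 4) at 300 nmol/min. By slide, it was 10.1% ± 2.11 (SD, n = 6) on slides 1 and 2 and 19.1% ± 0.616 (SD, n = 4) on slide 3. The lowest scaled signal still well above background lay between -3.71 and -2.56 on slides 1 and 2 and between -5.44 and -5.27 on slide 3, so that a dim gene could be read lower on slide 3. A difference between all senktide and all vehicle arrays therefore mixes dose with slide, and for EZH2, SUZ12, DNMT1, HDAC2 and SMARCA4 the differences within slides 1 and 2 are given beside it.

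The tissue label was checked with marker genes. Of 6 trophectoderm markers, 5 were well above background on all 10 arrays, with CDX2 on none. Of 3 inner cell mass markers, 2 were so on at least 1 array, with NANOG on none. Of the markers of other cells, 3 of 5 measured leukocyte genes, 1 of 3 blood genes, 2 of 4 stroma genes, 1 of 2 oviduct or uterine genes, 1 of 3 cumulus genes and 1 of 3 oocyte genes were above background on any array, and 1 of these, a leukocyte gene, on all 10. The blood genes HBB and ALAS2, the oviduct or uterine gene OVGP1, the stroma genes COL1A1 and COL3A1, the leukocyte genes S100A8 and S100A9, the cumulus genes CYP19A1 and FSHR, and the oocyte genes GDF9 and BMP15 were so on none. Those above background on at least 1 array were PTPRC, ITGB2 and LYZ (leukocytes), HBA (blood), COL1A2 and DCN (stroma), CLU (oviduct or uterus), INHBA (cumulus) and ZP3 (oocyte). On the log2 scale the summed scaled signal of the stroma list was -1.78 to -0.89 in vehicle, -4.09 to -1.61 at 30 nmol/min and -3.54 to -1.99 at 300 nmol/min, so that only the higher dose lay apart from vehicle. Likewise the blood list, at -2.67 to -2.35 in vehicle and -3.52 to -3.06 at 300 nmol/min, and the cumulus list, at -2.43 to -2.21 and -4.47 to -2.57, were lower than vehicle without overlap at the higher dose only. No gene of the stroma, blood or cumulus lists was well above background on a vehicle array. Slide 3, which had no vehicle array, could read dim genes lower. Among single tested probes, 16.3% lay below vehicle without overlap at 300 nmol/min. The leukocyte list, at -1.25 on both vehicle arrays and -1.96 to -1.32 at 30 nmol/min, lay apart at the lower dose only. The trophectoderm, inner cell mass, oviduct or uterine and oocyte lists overlapped vehicle at both doses. The part of these lists in the results below was not tested. The samples are embryos by their titles, source and tissue fields, and the label text on RNA extraction alone mentions endometrial samples.

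By their brightest probes, 8 of the 33 genes were well above background on all 10 arrays. These were the demethylase KDM1A, the SWI/SNF core subunit SMARCB1, the heterochromatin protein CBX3, the deacetylase HDAC1, the DNA methyltransferase DNMT3A, the methyl-CpG-binding family member MBD3 of NuRD, and RBBP4 and RBBP7, the WD40 histone-binding proteins shared by NuRD, PRC2 and other complexes. Another 15 genes were above background on 2 to 9 arrays. CHAF1B, SUV39H1 and TET3 were so on 1 array, and CBX1, DNMT3B, EHMT2, KDM6A, SETDB1, TET2 and UHRF1 on none. All probes of CBX1, DNMT3B, EHMT2, SETDB1, TET2 and UHRF1 stayed at background, whereas KDM6A had a dimmer probe above background on 2 arrays. For these genes the arrays give only an upper limit, and a gene that reads at background here is not shown to be silent.

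The number of the 33 genes above background was 12 and 15 on the vehicle arrays, 15, 10, 22 and 21 on the arrays at 30 nmol/min, and 14, 16, 21 and 21 on those at 300 nmol/min. On slides 1 and 2 the vehicle arrays lay within the range of the senktide arrays, which was 10 to 16, and every slide 3 array read 21 or 22. In bulk samples such as these, fewer cells of a type and less RNA per cell cannot be told apart.

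**Figure D1:**
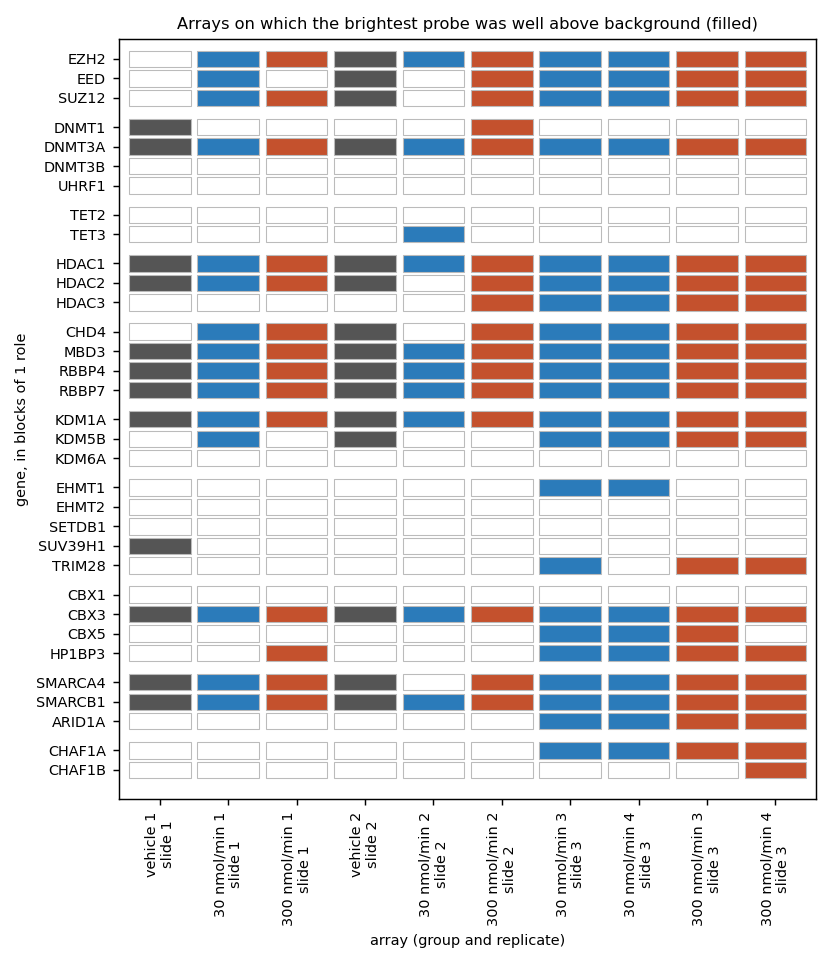
Detection of 33 chromatin genes (rows, in blocks by role) on 10 arrays (columns, ordered by slide). A filled cell means that the gene's brightest probe was well above background, grey for vehicle, blue for 30 nmol/min and orange for 300 nmol/min; 8 rows are filled throughout, and ARID1A and CHAF1A are filled on slide 3 only.

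Each senktide group was set against vehicle to ask whether these regulators differed in the embryos, and the 23 genes whose brightest probe was above background on at least 2 arrays were tested. At 30 nmol/min none of the 23 passed an adjusted p of 0.05 in limma with Benjamini-Hochberg adjustment over 8938 probes, and 0% of all tested probes did. At 300 nmol/min again none of the 23 passed, against 0.0112% of all probes. Between 300 and 30 nmol/min none of the 23 passed, against 0%. At an unadjusted p under 0.05 the numbers were 5 of 23, 4 of 23 and 1 of 23, against 11.3%, 13.8% and 3% of all tested probes. The median difference of the 23 genes from vehicle was -0.17 at 30 nmol/min and -0.14 at 300 nmol/min, beside -0.11 at each dose over all tested probes. Scaling to the 75th percentile of all probes in place of the well detected ones moved the latter to 0.95 and 1.06, so a difference from vehicle is read relative to the other probes.

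Counts without overlap between groups stayed small. At 30 nmol/min, 3 genes (EZH2, HDAC3, CHAF1A) lay above both vehicle arrays on every array, where 7.63% of all probes did, and 3 (SMARCA4, HDAC2, CBX3) lay below, where 11.9% did. At 300 nmol/min, 3 genes (EZH2, SUZ12, CHAF1A) lay above, against 9.25%, and 2 (SMARCA4, CBX3) below, against 16.3%. Between the doses no gene lay apart in either direction, where 1.56% of all probes lay higher and 1.14% lower at 300 nmol/min. The comparisons with vehicle share their vehicle arrays, so that a gene found in both is not found independently. Of the 23 genes, 15 had a lower mean than vehicle and 8 (34.8%) a higher one, at each dose. Over all tested probes 40.0% had a higher mean at 30 nmol/min and 40.6% at 300 nmol/min.

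**Figure D2:**
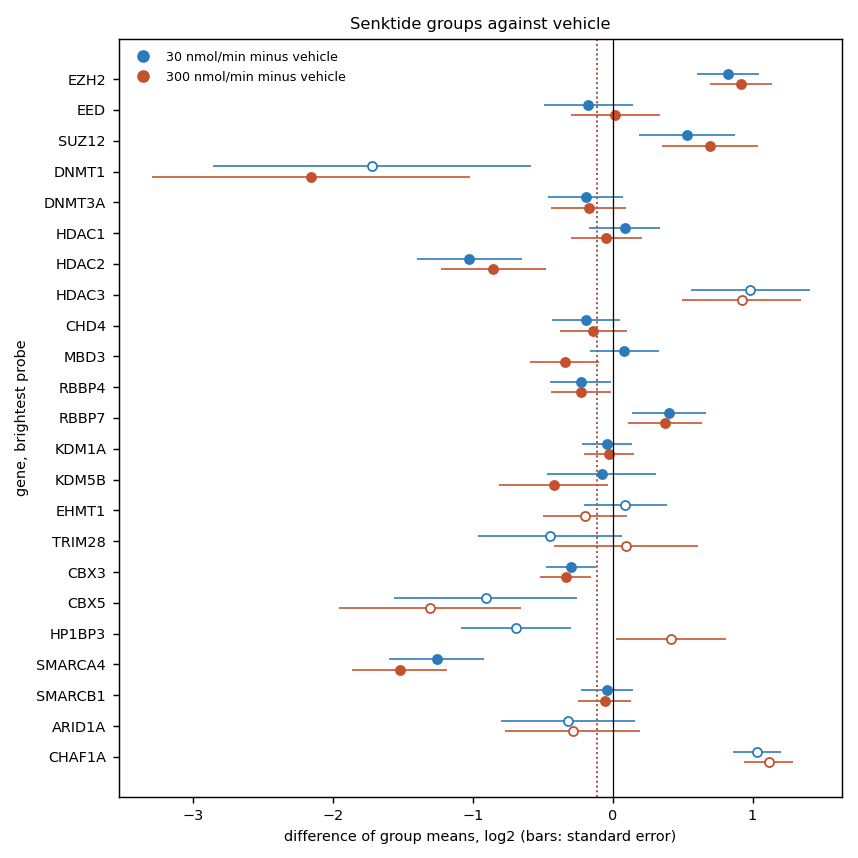
Difference of the group means from vehicle (log2, x axis) for the 23 tested genes (y axis, ordered by role), blue for 30 nmol/min and orange for 300 nmol/min, with the standard error as bars; dotted lines mark the median of all tested probes, -0.11 at each dose. Open points had no array well above background in one of the compared groups. None of these differences passed an adjusted p of 0.05.

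PRC2 is built from the methyltransferase EZH2, the mark-binding subunit EED and the zinc finger subunit SUZ12, and all 3 were tested. The brightest EZH2 probe read -2.89 and -2.78 in vehicle. It read -1.84, -1.93, -2.03 and -2.25 at the lower dose, and -2.26, -1.92, -1.64 and -1.85 at the higher dose. All 8 senktide arrays lay above both vehicle arrays, of which 1 was well above background. The mean difference was 0.82 (SE 0.22) at 30 nmol/min and 0.92 (SE 0.22) at 300 nmol/min, that is 1.77-fold and 1.89-fold, with adjusted p = 0.288 and 0.181 in limma. Within slide 1 the differences were 1.05 and 0.63, and within slide 2 they were 0.86 and 0.87.

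The other EZH2 probes did not all point the same way. The probe at position 2126, whose sequence is given above, was 0.20 and 0.39 higher than vehicle at the lower and higher dose. That at 2423, which overlaps the brightest probe at 2414 and is not a separate reading, was 0.30 and 0.48 higher. The probe at 2301 differed by -1.09 and -0.54. None of these 3 probes was above background on a vehicle array. A further 3 EZH2 probes, at positions 480, 868 and 1624, were at background on all 10 arrays. With the 4 tested EZH2 probes averaged, the difference was 0.06 at 30 nmol/min and 0.31 at 300 nmol/min.

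SUZ12 read -2.84 and -2.23 in vehicle, -1.61, -2.70, -2.04 and -1.66 at the lower dose, and -2.10, -2.08, -1.58 and -1.61 at the higher dose. The lower dose overlapped vehicle and the higher dose did not, with differences of 0.53 (SE 0.34) and 0.69 (SE 0.34) and adjusted p = 0.532 and 0.387 in limma. Within slide 1 the differences were 1.23 and 0.75, and within slide 2 they were -0.47 and 0.15. Its second tested probe, at position 3956, was 0.71 and 0.67 higher than vehicle, with no vehicle array above background. EED ranged from -3.55 to -2.56 over the 10 arrays, and its differences were -0.17 and 0.02.

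Among the DNA methylation genes, the maintenance enzyme DNMT1 passed the test between slides, described further on, by its brightest probe only, and did not pass that against vehicle. Its brightest probe read -2.12 and -3.51 in vehicle, -3.84, -2.68, -5.73 and -5.88 at the lower dose, and -4.19, -3.20, -7.02 and -5.47 at the higher dose. It was well above background only in vehicle replicate 1 and in replicate 2 at 300 nmol/min, and the 4 lowest values are the 4 arrays of slide 3. Fitted differences from vehicle were -1.72 (SE 1.14) and -2.16 (SE 1.14), with adjusted p = 0.545 and 0.412 in limma, and they were -1.72 and -2.07 within slide 1 but 0.83 and 0.31 within slide 2. No fold is given, since 1 of 2 vehicle arrays and no array at 30 nmol/min was above background. Its other tested probes, at positions 4946 and 4993, differed from vehicle by 0.26 and 0.09 at 30 nmol/min and by -0.34 and -0.36 at 300 nmol/min.

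The de novo enzyme DNMT3A was among the genes detected on every array. It read 0.23 and 0.04 in vehicle, 0.05, -0.42, 0.31 and -0.16 at the lower dose, and 0.15, -0.30, 0.30 and -0.29 at the higher dose. The groups overlapped, and the differences were -0.19 (SE 0.27) and -0.17 (SE 0.27). A second DNMT3A probe, at position 2804, differed from vehicle by -1.16 and -1.08, although no vehicle array was above background there, so that no fold is given. DNMT3B and all 4 UHRF1 probes were at background on all 10 arrays. TET2 was at background on all 10 arrays and TET3 was above it only in replicate 2 at 30 nmol/min.

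Of the 3 class I histone deacetylases, HDAC1 was detected on every array, at 0.95 and 1.31 in vehicle, 1.16, 1.66, 1.06 and 0.98 at the lower dose, and 1.01, 0.83, 1.39 and 1.11 at the higher dose. Its groups overlapped, with differences of 0.09 (SE 0.26) and -0.05 (SE 0.26). The HDAC1 sequence at position 855 given above was at background on all 10 arrays, while the detected probe lies at position 1897.

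HDAC2 read -2.0 and -2.76 in vehicle, -3.22, -2.99, -3.51 and -3.90 at the lower dose, and -3.04, -2.61, -3.64 and -3.64 at the higher dose. The lower dose lay below both vehicle arrays and the higher dose overlapped them. The differences were -1.03 (SE 0.38) and -0.85 (SE 0.38), with adjusted p = 0.376 and 0.361 in limma, and their sign turned to 0.032 and 0.32 with the scaling to all probes. Within slide 1 they were -1.21 and -1.04, and within slide 2 they were -0.24 and 0.15. Without vehicle replicate 1 they were -0.65 and -0.48. A second HDAC2 probe, at position 1146, differed by -1.04 and -0.83, with no vehicle array above background. HDAC3 was above background on no vehicle array, on 2 of 4 arrays at 30 nmol/min and on 3 of 4 at 300 nmol/min, and 4 of these 5 arrays were on slide 3. Its scaled signal was -4.05 ± 0.51 (SD, n = 2) in vehicle, -3.07 ± 0.49 (SD, n = 4) and -3.13 ± 0.58 (SD, n = 4), and no fold is given because the bound against the vehicle arrays' detection limit was under 1. The difference at 30 nmol/min was 0.98, and 0.63 without vehicle replicate 1.

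NuRD couples deacetylation to the remodelling ATPase CHD4, and the brightest probes of its 4 tested genes here showed small differences from vehicle. CHD4, above background on 8 arrays, differed by -0.19 and -0.14, and RBBP4 by -0.23 at each dose. Other tested RBBP4 probes ran from -0.64 to 0.42 at 30 nmol/min and from -0.45 to -0.03 at 300 nmol/min. Those of CHD4 were 0.15 and -0.25 at the lower dose and -0.00 and -0.40 at the higher. None of these other probes was above background on a vehicle array. RBBP7 was 0.40 (SE 0.26) and 0.37 (SE 0.26) higher, and its second probe 0.19 and 0.26 higher. MBD3 differed by 0.08 at 30 nmol/min and by -0.34 at 300 nmol/min. Between 300 and 30 nmol/min the MBD3 difference was -0.43 (SE 0.20), and it was -0.44, -0.61 and -0.33 within slides 1, 2 and 3, with adjusted p = 0.999 in limma.

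KDM1A, which removes methyl groups from H3K4, had the smallest spread of the 8 genes detected on all 10 arrays. It read 0.91 and 1.14 in vehicle, 0.86, 1.15, 0.97 and 0.96 at the lower dose, and 1.00, 0.87, 1.06 and 1.07 at the higher dose. Its SD over the 10 arrays was 0.105, and 1.93% of the 2491 probes detected on all arrays had a smaller one. SMARCB1 followed at 0.124, with 5.06% of those probes below it, and MBD3 had the widest spread of the 8 genes detected on all 10 arrays, at 0.305, beside a median SD of 0.236 over those probes. These spreads are of brightest probes. The second tested KDM1A probe, at position 2412, had an SD of 0.376 and differed from vehicle by -0.52 and -0.67. It lay below both vehicle arrays at each dose, with no vehicle array above background. The H3K4 demethylase KDM5B, above background on 6 arrays, ranged from -3.70 to -2.16 and differed from vehicle by -0.08 and -0.42. For the 8 genes detected on all 10 arrays, the 95% intervals of the differences from vehicle lay between -0.79 and 0.99 at 30 nmol/min and between -0.89 and 0.96 at 300 nmol/min, which leaves room for differences of nearly 1 on the log2 scale.

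**Figure D3:**
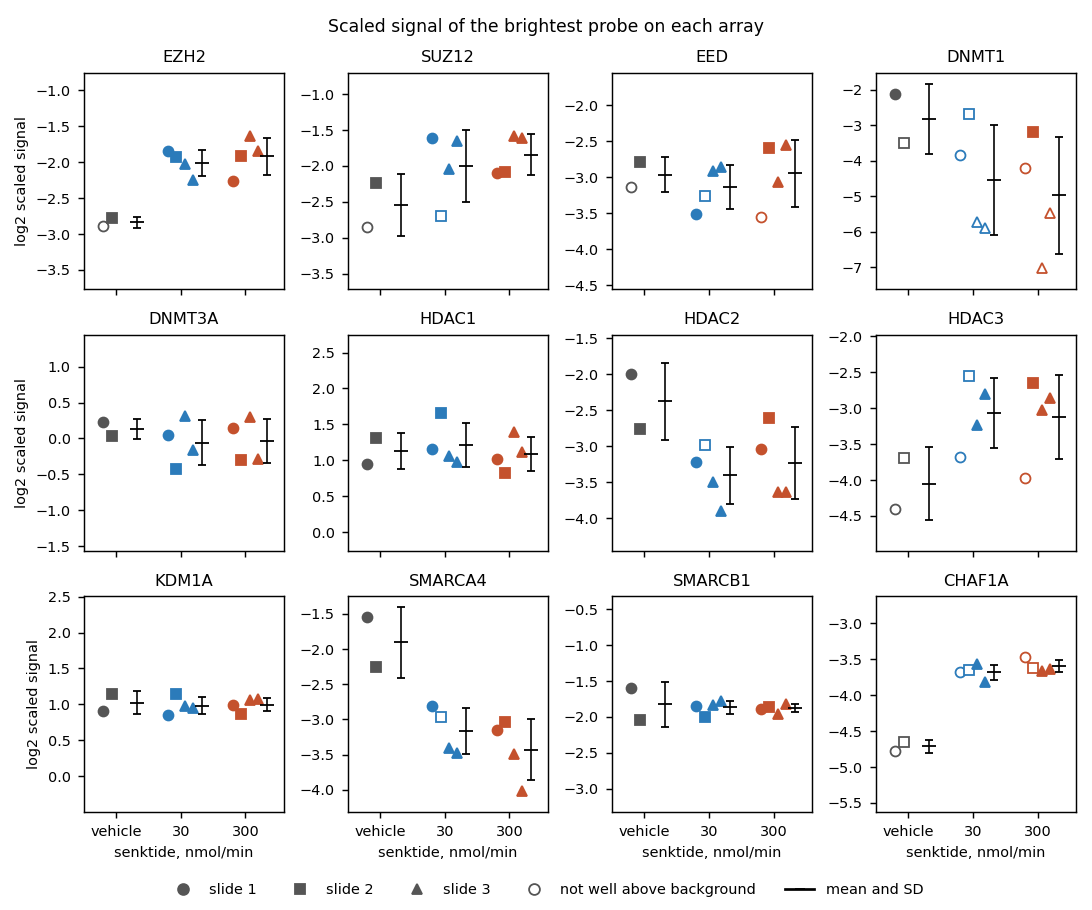
Scaled signal (log2, y axis) of the brightest probe of 12 genes on each array, by group (x axis: vehicle, 30 and 300 nmol/min). Circles, squares and triangles are slides 1, 2 and 3, open symbols were not well above background, and the black marks are the group mean and SD (n = 2, 4 and 4). EZH2 lies higher and SMARCA4 lower in all 8 senktide arrays than in both vehicle arrays, and KDM1A stays between 0.86 and 1.15.

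The H3K9 methyltransferases, their corepressor and the HP1 family were mostly dim. Of the H3K9 methyltransferases, SETDB1 and EHMT2 were at background throughout, SUV39H1 was above it only in vehicle replicate 1, and EHMT1 was above it only on the slide 3 arrays at 30 nmol/min. TRIM28, the corepressor that recruits SETDB1, was above background on 3 arrays, all on slide 3. Of the HP1 proteins that bind methylated H3K9, CBX3 was detected on every array and differed from vehicle by -0.30 (SE 0.18) and -0.34 (SE 0.18). A second CBX3 probe, at position 1484, was also above background on all 10 arrays. It differed by -0.21 and 0.11 and overlapped vehicle at both doses. CBX5 was above background on 3 arrays and CBX1 on none. HP1BP3, a linker-histone-like protein that binds HP1, had the largest difference between the doses. It read -5.26, -4.88, -3.81 and -4.13 at the lower dose, and -3.26, -3.90, -3.24 and -3.24 at the higher dose. The groups overlapped, and the mean was 1.11 (SE 0.32) higher at 300 nmol/min, with adjusted p = 0.999 in limma, and higher by 2.00, 0.98 and 0.73 within slides 1, 2 and 3. Replicates 1 and 2 at 30 nmol/min, replicate 2 at 300 nmol/min and both vehicle arrays, at -3.84 and -3.81, were not well above background, so that slide 3 alone compared detected values.

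SMARCA4, the ATPase of the SWI/SNF remodeller also known as BRG1, read -1.55 and -2.26 in vehicle. It read -2.80, -2.96, -3.41 and -3.47 at the lower dose, and -3.15, -3.04, -3.50 and -4.02 at the higher dose. All 8 senktide arrays lay below both vehicle arrays, with mean differences of -1.26 (SE 0.34) and -1.52 (SE 0.34), or 2.39-fold and 2.87-fold. Adjusted p was 0.288 and 0.172 in limma, and the sign at 30 nmol/min turned (0.064) only with scaling to the median of all probes. Within slide 1 the differences were -1.25 and -1.60, and within slide 2 they were -0.70 and -0.78. With normexp background correction and quantile normalization the difference at 300 nmol/min was -0.53 with adjusted p = 0.0440 in limma, so that this call depends on the processing.

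A second SMARCA4 probe, at position 5277, gave the opposite sign. It read -4.73 and -5.19 in vehicle, -5.36, -4.14, -3.74 and -3.92 at the lower dose, and -4.34, -3.62, -3.50 and -3.83 at the higher dose, with no vehicle array above background. Its fitted differences were 0.68 and 1.14. SMARCB1 differed from vehicle by -0.04 and -0.06 (SE 0.19). Its second tested probe differed by -0.69 and -0.79, with no vehicle array above background. ARID1A, the DNA-binding subunit, was above background on the 4 slide 3 arrays only, and its differences from vehicle were -0.32 and -0.29.

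CHAF1A, the large subunit of CAF-1, which loads histones onto newly replicated DNA, had the smallest p of the 23 genes at each dose. It read -4.78 and -4.65 in vehicle, -3.68, -3.65, -3.57 and -3.82 at the lower dose, and -3.47, -3.62, -3.66 and -3.64 at the higher dose. The groups did not overlap, and adjusted p was 0.185 and 0.100 in limma. All 6 arrays of slides 1 and 2, vehicle included, were not well above background, and only the 4 slide 3 arrays were. The vehicle values thus lie below the level that these arrays could resolve, the bound against that level was under 1, and no fold is given. CHAF1B was above background on 1 array.

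Several probes of the same gene could be compared within an array. Of the 14 genes with at least 2 tested probes, all probes had a higher mean than vehicle in 2 genes and a lower one in 7 at 300 nmol/min, and they had opposite signs in 5 (ARID1A, CBX3, EZH2, KDM5B, SMARCA4). At 30 nmol/min the numbers were 2, 5 and 7. Some probes overlap and are not separate readings. The ARID1A probes at 8385 and 8400 share 45 bases, and KDM5B probes at 4502 and 4540 share 22. RBBP4 probes at 1196 and 1240 share 16. By their genome coordinates the EZH2 probes at 2414 and 2423 overlap as well. None of the 45 tested probes of these genes passed an adjusted p of 0.05 in limma in any comparison of dose groups.

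**Figure D4:**
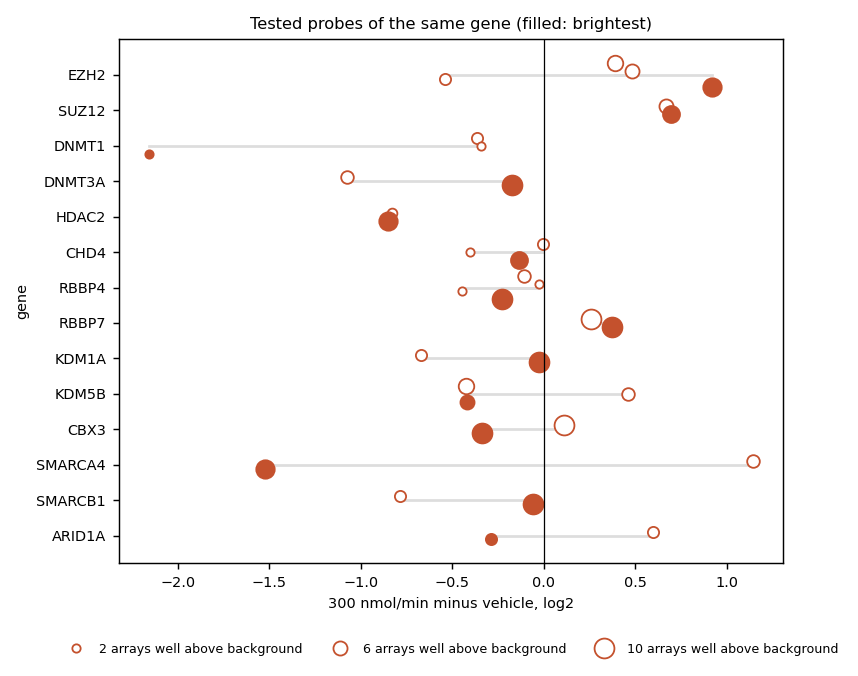
Difference between 300 nmol/min and vehicle (log2, x axis) for every tested probe of the 14 genes with at least 2 such probes (y axis). Filled points are the brightest probe of a gene, and larger points were well above background on more arrays, with points of 1 gene set apart vertically for sight only. SMARCA4 runs from -1.52 to 1.14 and EZH2 from -0.54 to 0.92, while the SUZ12 probes lie at 0.69 and 0.67.

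Where on the transcript a probe lay went with whether it was read. Among the 31 annotated transcripts of these genes with several probes, the last probe was above background on at least 2 arrays for 20, or 64.5%, and 20 of the other 69 probes were, or 29.0%. Over all such transcripts on the array the shares were 35.8% and 16.4%. Where 1 probe of a transcript was detected on the most arrays, it was the last one in 12 of 20 transcripts, or 60%, against 78.1% over the array.

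Within the senktide groups slide 3 could be set against slides 1 and 2, which compares 4 with 4 arrays at equal doses. Of the 23 genes, 5 passed an adjusted p of 0.05 in limma (21.7%), beside 15.2% of all tested probes. These were 1 higher and 4 lower, where all tested probes gave 261 higher and 1096 lower. With scaling to the 75th percentile of all probes, 21 genes were higher and 1 lower, where all tested probes gave 7820 and 297. With normexp and quantile normalization, 3 genes were higher and 2 lower, beside 1405 and 420. At an unadjusted p under 0.05 there were 8 of the 23 genes, against 28.5% of all tested probes. Without overlap 1 gene lay above and 4 below, against 5.07% and 16.2%. The brightest DNMT1 probe fell by 2.55 on slide 3 (SE 0.40, adjusted p = 0.00407 in limma). No fold is given, since no slide 3 array and 1 of the 4 senktide arrays on slides 1 and 2 was above background. Dim readings fell on slide 3 in general. With no filter on dim probes the median slide difference over all 43653 probes was -1.81, and 35003 of them passed. The other tested DNMT1 probes were higher on slide 3, by 0.96 at position 4993 and 0.52 at 4946, without passing the threshold. These were above background on 4 and 2 slide 3 arrays and on no other senktide array. CBX5 fell by 1.39 (SE 0.27, adjusted p = 0.0108 in limma), although it was above background on 3 slide 3 arrays and on none of slides 1 and 2, so no fold is given. HDAC2 fell by 0.71 (SE 0.17, adjusted p = 0.0278 in limma) and SMARCA4 fell by 0.61 (SE 0.16, adjusted p = 0.0376 in limma). ARID1A was higher on slide 3 by 1.00 (SE 0.23, adjusted p = 0.0228 in limma), at least 1.03-fold.

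DNMT1, CBX5, HDAC2 and SMARCA4, lower on slide 3, also had a lower mean than vehicle at each dose. Slide 3 holds 4 of the 8 senktide arrays and none of vehicle. The part of slide 3 in those lower means was not tested. Differences within slides 1 and 2 are given above for DNMT1, HDAC2 and SMARCA4. When each senktide array was left out in turn, DNMT1 and CBX5 kept their calls between slides in all 8 fits. Neither gene was above background on both sides of that comparison. ARID1A lost its call without replicate 4 at 30 nmol/min and without replicates 1, 3 or 4 at 300 nmol/min (adjusted p up to 0.0719 in limma). HDAC2 lost its call without replicates 2 or 4 at 30 nmol/min and without replicates 2, 3 or 4 at 300 nmol/min (up to 0.0878). SMARCA4 lost its call in all but 2 of the 8 fits, holding only without replicate 2 at 30 nmol/min or replicate 3 at 300 nmol/min (up to 0.116). The DNMT1 difference was -0.36 (adjusted p = 0.524 in limma) with its 3 tested probes averaged. Scaling to all probes, which moved the median of all tested probes between slides from -0.07 to 1.42, turned the signs of CBX5, HDAC2 and SMARCA4.

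**Figure D5:**
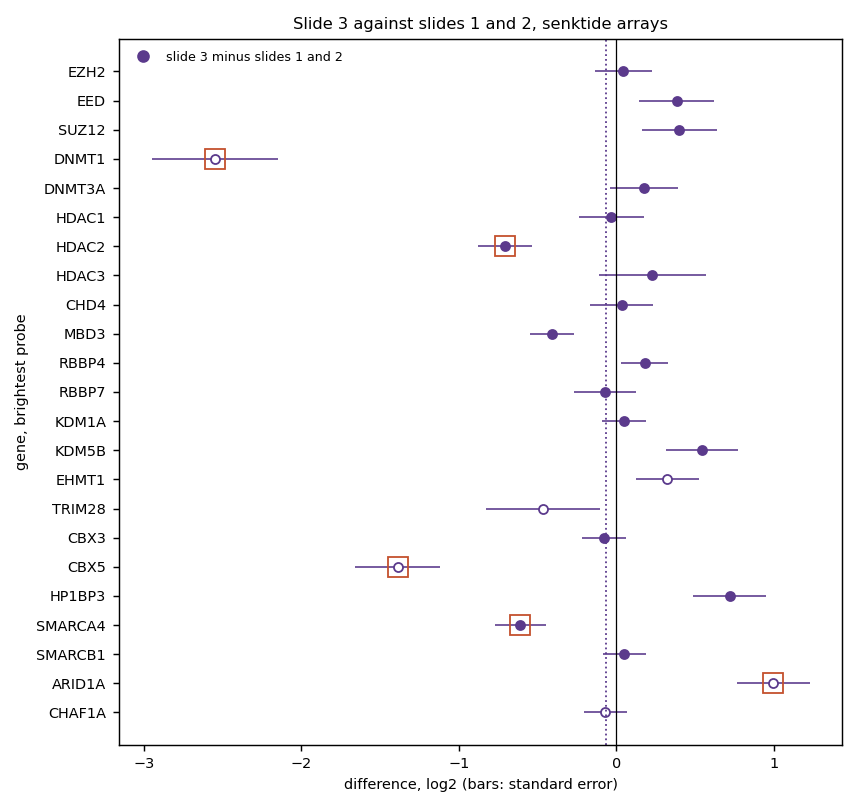
Difference between slide 3 and slides 1 and 2 within the senktide groups (log2, x axis, bars the standard error) for the 23 tested genes (y axis); open points had no array well above background on one side, and orange squares mark adjusted p under 0.05. DNMT1, an open point at -2.55, lies farthest from the median of all tested probes (dotted line, -0.07).

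Other chromatin genes were read from a list of 166, of which 148 had a probe and 95 were tested. None of the 95 passed the adjusted threshold in limma in any comparison of dose groups, and at an unadjusted p under 0.05 there were 12, 11 and 4, against 11.3%, 13.8% and 3% of all tested probes. Their median difference was -0.03 at 30 nmol/min, -0.04 at 300 nmol/min and -0.00 between the doses. Between slides, 4 of the 95 rose and 8 fell at the adjusted threshold, where 15.2% of all tested probes passed in either direction.

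The genes of that list with the smallest p per direction came from several complexes. At 30 nmol/min they were HMGN2 (a nucleosome-binding protein, 0.46) and SMARCE1 (a SWI/SNF subunit, 0.43) above vehicle, and CTCF (an architectural zinc finger protein, -0.56) and GATAD2A (a NuRD subunit, -0.62) below it. At 300 nmol/min they were SMARCE1 (0.52) and SAP18 (a SIN3-associated protein, 0.61) above, and GATAD2A (-0.94) and INO80 (a remodelling ATPase, -1.81) below. Between the doses SMC3 (a cohesin subunit, 0.75) and ING1 (0.38) were higher at 300 nmol/min, and ARID2 (a SWI/SNF subunit, -1.01) and CHD2 (a remodeller, -0.80) lower. Their adjusted p lay between 0.225 and 0.999 in limma, so that none of these differences passed the test.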

How the data were processed

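Each deposited scanner file gives intensity for every spot. Agilent Feature Extraction is named as version 11.5.1.1 per the file headers and as 10.5.1.1 per the submitters' processing notes. The authors' processed intensity was used as log2, averaged over spots of a probe with outlier spots left out, minus the 75th percentile of the array, taken over 2491 probes detected on all 10 arrays. Probes well above background on at least 2 arrays (8938) were fitted in R 4.3.3 by limma 3.58.1 with lmFit and eBayes, 1 coefficient per group over all 10 arrays, with Benjamini-Hochberg adjustment at 0.05; the slide fit used the 8 senktide arrays with dose as a covariate. The deposited value table holds log2 values, which equalled the processed signal minus the array's 75th percentile of all probes and each probe's median within 0.01 for nearly all values. Its column medians were 0.22 and 0.12 (vehicle), 0.045, 0.066, -0.13 and -0.31 (lower dose), and 0.16, -0.18, -0.28 and -0.23 (higher dose). Flags for detection and for outliers (0 or 1) come from the deposited files.

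A gene's brightest probe stood for it. A group with no array well above background has only a bound: each of its arrays counts at its weakest detected signal, or at the probe's own value where that is higher. Gene names are those of the files, and RefSeq names matched for all 113 probes. All 38 genes are named, with per comparison the 2 genes of the wider list with the smallest p in each direction among those above background in both groups. The genes and lists were chosen with earlier results of these data known. Single differences were followed through the alternatives for genes with an unadjusted p under 0.05, chosen after the values were seen. Same-numbered senktide samples shared a slide by the file headers and deviated together (correlations 0.487, 0.495, 0.565 and 0.575). Differently numbered ones did so nearly as much, at 0.413 and 0.417 between slides 1 and 2 and at 0.545 and 0.492 within slide 3. Between slide 3 and the other slides the correlations were -0.531 to -0.472. Scripts were tested on simulated data. The number of arrays limits the precision.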

Additional observations from a re-analysis of the deposited data

Results flagged for a closer look

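In 1 of the 46 groups of 4 arrays looked at (23 genes at each dose), an array stood apart from the other 3 by more than Dixon's 95% critical value. HP1BP3 read -3.90 in replicate 2 at 300 nmol/min, where it was not well above background, and the other 3 arrays of that dose lay between -3.26 and -3.24. Chance alone gives such a gap in about 1 in 20 groups.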

How the results depend on the processing

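Under every alternative tried but 1, none of the genes passed the adjusted threshold in the comparisons of dose groups; normexp with quantile normalization gave 1 call at 300 nmol/min (SMARCA4), and 36 and 107 calls over all probes at the lower and higher dose in place of 0 and 1. Over all probes the calls were 34 and 32 without vehicle replicate 1, and 36 and 50 without vehicle replicate 2. The replicate block gave 0 calls among the genes in all 3 comparisons of dose groups, with an EZH2 difference of 0.80 and 0.90 from vehicle. Over all probes it gave 0 calls against vehicle at each dose and 1 between the doses. The median of the genes minus that of all tested probes moved from -0.06 to 0.99 at 30 nmol/min and from -0.03 to 1.16 at 300 nmol/min with no filter on dim probes, and to 0.24 and 0.27 with values raised to the array floor. That floor also turned CHAF1A (-0.58 and -0.67) and, at 30 nmol/min, HDAC3 (-0.14). Scaling to all probes raises all senktide differences (median of all tested probes 0.95 and 1.06, or 1.21 and 1.31 with the median). It turned HDAC2 at 30 nmol/min to 0.032 by the 75th percentile, 0.30 by the median and 0.032 in the authors' table, HDAC2 at 300 nmol/min to 0.32, 0.57 and 0.32, and SMARCA4 at 30 nmol/min to 0.064 by the median.

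Between slides the 1357 calls over all probes became 8117 and 8421 by the 75th percentile and median of all probes, and the 5 calls among these genes became 22 under each of these and in the authors' table, 14 with no filter, 0 among probes detected on all arrays, 3 with probes averaged and 2 to 5 when an array was left out. The centred median moved from 0.11 to 1.73 with no filter and 0.29 at the floor. By the 75th percentile, the median and the authors' table, CBX5 turned to 0.10, 0.41 and 0.10, HDAC2 to 0.78, 1.09 and 0.78, MBD3 to 1.08, 1.39 and 1.08, and SMARCA4 to 0.88, 1.18 and 0.88. SMARCA4 was 0.0035 with probes averaged and HP1BP3 -0.20 at the floor. Of the wider list, 12 calls became 85, 89 and 85 by the 75th percentile, the median and the authors' table. They became 27 with normexp, 66 with no filter, 32 at the floor and 3 among probes detected on all arrays. When an array was left out they were 7 to 15, and the cause was not tested. Calls between slides over all probes were 8114 of 8938 in the authors' table and 1825 of 8938 with normexp. They were 35003 of 43653 with no filter and 3960 of 8938 at the floor. Among probes detected on all arrays they were 149 of 2491, with probes averaged 1350 of 8917, and with an array left out 874 to 1378. Signal over background limits all dim genes.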
